A study of Mus musculus with 24 samples.

Results

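Round spermatids that lacked 3 of the 4 Argonaute proteins were compared with wild-type round spermatids for their mature miRNAs. The comparison used 8 of the 24 small RNA libraries of the series, 4 labelled Ago413-/- and 4 labelled Ago413+/+. A miRNA was kept where 3 or more of these 8 libraries held 10 or more counts of it, which left 410 of the 1978 mature miRNAs in the table. Of the others, 940 had no count in the 8 libraries and 628 had counts below this limit. All animals were male C57BL/6J mice of 10 to 15 weeks. The Ago413-/- animals carried on both chromosomes a constitutive deletion of one line, which removes the whole of Ago1 and parts of Ago3 and Ago4, neighbouring genes on chromosome 4, so that somatic cells of the testis lacked them too. Ago2 was intact in both groups. Each library came from cells pooled from 2 to 5 mice and sedimented through an albumin gradient, and fractions were pooled above a purity limit, given in the labels as 70% for both cell types and in the study's methods as a higher range for round spermatids, so some cells of other kinds remain. The labels do not say whether replicates came from separate mice, and p-values measure the spread between libraries. The series also holds Ago413+/- round spermatids and pachytene/diplotene spermatocytes of the 3 genotypes, used below only beside the members described.

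A miRNA is cut from a hairpin precursor by Drosha and Dicer as a duplex of its 2 arms, 1 of which (the major arm) is usually kept by an Argonaute protein while the other (the minor or passenger arm) is discarded. The kept strand pairs with messenger RNAs mainly through its seed, bases 2 to 8 from the 5′ end, and Argonaute binding protects it from decay. Of the Argonautes in mouse, Ago2 alone is established as a cutter of fully paired targets. Round spermatids are the haploid cells that follow meiosis, rich in the miR-34/449 family and in miRNAs from a rodent cluster on chromosome X.

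The sequences below are those the results turn on, with the seed in capitals, from RefSeq (GRCm38.p6), which held a sequence for 341 of the 410 miRNAs. The first set holds the largest decreases without overlap between genotypes, of which miR-146b-3p and miR-497a-5p stand in later sets and miR-466g is named only.
miR-409-3p: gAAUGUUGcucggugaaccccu
miR-409-5p: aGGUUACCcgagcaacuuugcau
miR-541-5p: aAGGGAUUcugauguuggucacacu
miR-130b-5p: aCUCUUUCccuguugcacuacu
miR-504-5p: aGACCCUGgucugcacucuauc
miR-935: cCCAGUUAccgcuuccgcuaccgc
miR-32-3p: cAAUUUAGugugugugauauu

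The second set holds the members that rose without overlap.
miR-146a-5p: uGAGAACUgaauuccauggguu
miR-450a-5p: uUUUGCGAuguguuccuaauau
miR-379-5p: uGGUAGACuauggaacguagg
miR-101a-3p: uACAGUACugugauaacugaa
miR-19b-3p: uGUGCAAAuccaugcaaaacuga
miR-26b-5p: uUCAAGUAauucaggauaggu

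The third set shows miRNAs with 1 seed, AGCAGCA, whose levels moved in opposite directions.
miR-15a-5p: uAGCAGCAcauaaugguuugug
miR-195a-5p: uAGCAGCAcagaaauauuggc
miR-497a-5p: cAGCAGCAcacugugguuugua

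The fourth set pairs the 2 arms of hairpins whose arm ratio changed, the arm that was the less abundant in Ago413+/- round spermatids second in each pair.
miR-146b-5p: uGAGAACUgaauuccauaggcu
miR-146b-3p: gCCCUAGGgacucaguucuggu
let-7b-5p: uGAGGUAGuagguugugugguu
let-7b-3p: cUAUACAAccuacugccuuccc
miR-148a-3p: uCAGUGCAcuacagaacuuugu
miR-148a-5p: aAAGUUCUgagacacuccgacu
miR-130b-5p: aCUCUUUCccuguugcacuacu
miR-130b-3p: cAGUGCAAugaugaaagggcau

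Values below are CPM (counts scaled to a common library size) with library sizes from TMM, a method that assumes most miRNAs unchanged. Library totals ran from 343564 to 1072637 counts in Ago413+/+ and from 394977 to 948061 in Ago413-/-, so a count of 0 allows up to 3 counts, or 2.80 to 8.73 CPM before scaling. This limit and the intervals below cover only the error of counting, because PCR copies are not separate molecules. The loss of the 3 genes cannot be checked in miRNA counts. The miRNAs of meiotic and later germ cells, miR-449a-5p, miR-34c-5p and miR-34b-5p, summed to 64096 to 107879 CPM in Ago413+/+ and to 66602 to 120800 CPM in Ago413-/-, and no listed miRNA tells round spermatids from spermatocytes. Among the cell type markers, some single libraries stood apart. Ago413-/- replicate 4 held 4545 CPM of red blood cell miRNAs, where the other 7 libraries held 49.0 to 614 CPM. Ago413+/+ replicate 1 held 10844 CPM of peritubular and mesenchymal miRNAs, where the other 7 held 2650 to 7693 CPM. Ago413-/- replicate 1 held 5637 CPM of endothelial miRNAs, where the other 7 held 486 to 3478 CPM. The trend of log2 CPM on the GC content of the miRNA also separated Ago413+/+ from Ago413-/- libraries. Its slopes per 10% of GC were 0.0081 to 0.279 in Ago413+/+ and -0.0987 to -0.0121 in Ago413-/-. The slopes in Ago413+/- round spermatids, -0.182 to 0.0283, overlapped both ranges.

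The miRNAs of round spermatids fell more often than they rose when Ago1, Ago3 and Ago4 were lost. A miRNA is called where its adjusted p was under 0.05 and its log2 fold change (Ago413-/- over Ago413+/+) at least 1 in size, by edgeR's quasi-likelihood test over the 12 round spermatid libraries with Benjamini-Hochberg adjustment over the 410 miRNAs. By this rule 66 of 410 miRNAs were called (16.1%), 15 higher (3.66%) and 51 lower (12.4%) in Ago413-/-. In 53 of these 66 the 4 libraries of one genotype lay wholly above or below the 4 of the other, 6 of them higher and 47 lower. Of all miRNAs tested 22.9% were so separated, 5.61% higher and 17.3% lower. An adjusted p under 0.05 at any size was reached by 88 miRNAs, 24 higher and 64 lower. The split between higher and lower depended on the scaling, the filter and single libraries. It was 32 higher and 37 lower where the filter took in all 12 round spermatid libraries, and 25 and 28 without Ago413+/+ replicate 3. Leaving out other single libraries gave from 9 higher (without Ago413-/- replicate 4) to 28 higher (without Ago413-/- replicate 2) and from 33 lower (without Ago413-/- replicate 1) to 44 lower. RLE scaling gave 22 higher and 44 lower and DESeq2 23 and 43, and with each of the 12 libraries in turn as the TMM reference it ran from 14 and 51 to 27 and 36, while the median over the 410 log2 fold changes ran from -0.09 to 0.13 (-0.08 in the values given here). Under every scaling tried with edgeR, 48 of the 66 calls were made, 12 higher and 36 lower. Fold changes near 1 in size are therefore the least certain of those below.

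**Figure D1:**
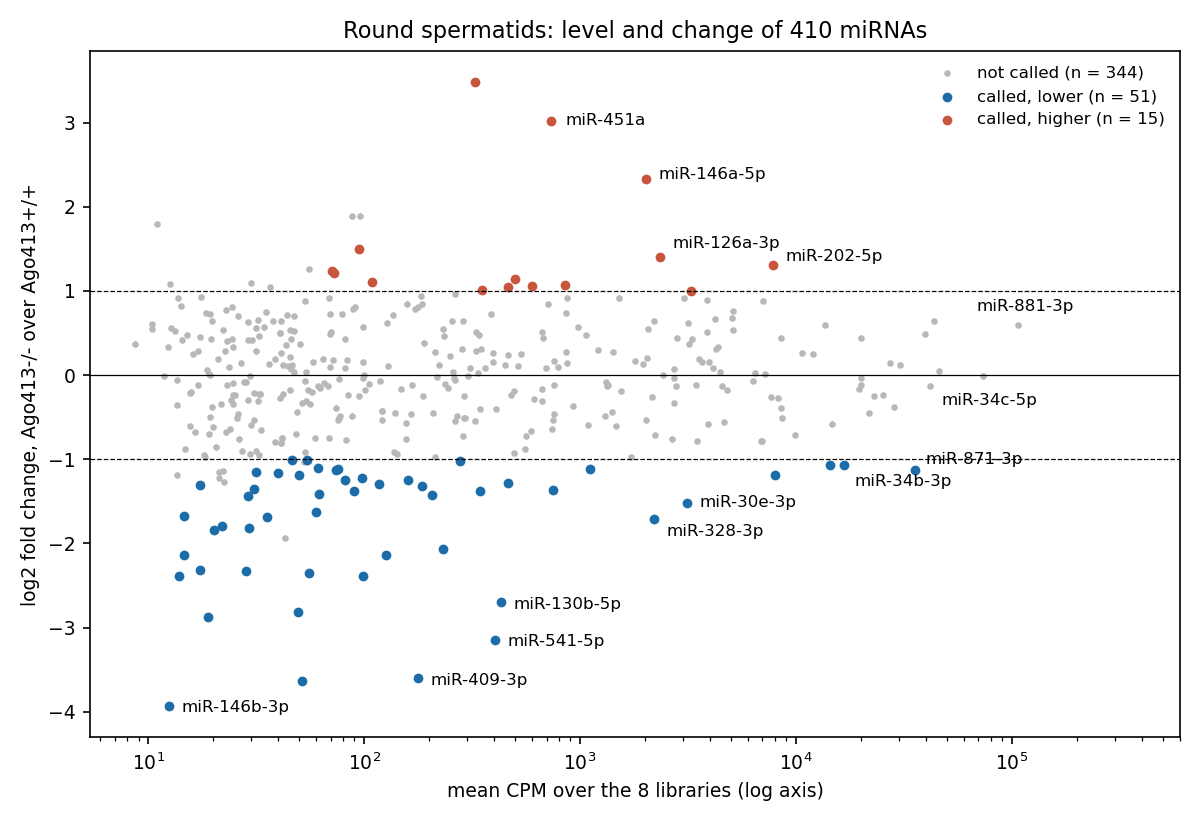
Each point is one of the 410 miRNAs, with its mean CPM over the 8 libraries on the horizontal log axis and its log2 fold change on the vertical axis; dashed lines mark a log2 fold change of 1 in either direction. Of the 66 called miRNAs, 51 (blue) lay below the lower line and 15 (red) above the upper one, and the largest decreases were of miRNAs under 1000 CPM.

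Of the 51 lower calls, 25 had under 100 CPM in Ago413+/+, as had 197 of all 410 miRNAs. Both arms of the miR-409 hairpin fell most among those with counts in every library. miR-409-3p had 360, 237, 457 and 262 CPM in Ago413+/+ and 20.8, 32.7, 20.7 and 34.7 CPM in Ago413-/-. All 4 wild-type libraries lay far above every Ago413-/- library, and the log2 fold change was -3.60 (SE 0.38, adjusted p = 1.92e-05 by edgeR). miR-409-5p had 62.3 to 121 CPM against 2.59 to 17.6 CPM, a log2 fold change of -3.63 (SE 0.47). The seeds of these 2 arms differ.

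miR-130b-5p, from an intron of 2610318N02Rik on chromosome 16, had 595, 747, 995 and 632 CPM in Ago413+/+ and 94.5, 148, 86.8 and 129 CPM in Ago413-/-. All 4 Ago413-/- libraries were far below the wild-type ones (log2 fold change -2.70, SE 0.30, adjusted p = 1.92e-05 by edgeR). miR-935, which overlaps an exon of Cacng8 on chromosome 7, had 115, 69.2, 90.2 and 71.7 CPM and 4.80, 15.1, 19.4 and 8.16 CPM. Its groups were likewise separate, with a log2 fold change of -2.81 (SE 0.39, adjusted p = 0.000145 by edgeR). Some decreases rested on few reads. miR-146b-3p had 59 counts over the 4 Ago413+/+ libraries and 3 over the Ago413-/- ones, a ratio of rates of 16.9 (95% counting interval 5.51 to 84.4), and miR-504-5p, intronic in Fgf13 on chromosome X, had 89 and 10 counts, a ratio of 7.65 (3.97 to 16.5). miR-32-3p, with 62 and 10 counts, had a ratio of 5.33 (2.71 to 11.7). For miR-369-5p, with 57 and 11 counts, the ratio was 4.46 (2.31 to 9.42).

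Of the abundant miRNAs, 8 with over 1000 CPM in Ago413+/+ were called lower, and 6 with over 1000 CPM in Ago413-/- were called higher. Over all 410 miRNAs the calls were 51 lower (12.4%) and 15 higher (3.66%). miR-328-3p had 4038, 3473, 3671 and 2341 CPM in Ago413+/+ and 967, 1064, 982 and 1118 CPM in Ago413-/-. The Ago413-/- libraries lay close together and below all of the wild type (log2 fold change -1.71, SE 0.26, adjusted p = 0.000363 by edgeR), and the call stood under all 16 alternatives. miR-30e-3p had 4078, 3457, 6375 and 4595 CPM against 1592, 1904, 1779 and 1167 CPM, again without overlap (-1.52, SE 0.25, adjusted p = 0.000434 by edgeR). miR-375-3p, known from endocrine cells and abundant in testis, had 7047 to 15931 CPM and 4164 to 5409 CPM (-1.19, SE 0.25).

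The next 3 had fold changes close to the limit, and their calls depended on the scaling. miR-871-3p, the most abundant member called, had 54670, 63858, 50025 and 26638 CPM in Ago413+/+ and 21014, 20315, 28817 and 18842 CPM in Ago413-/-. Its groups overlapped through Ago413+/+ replicate 4 and Ago413-/- replicate 3, and its log2 fold change of -1.13 ran from -1.15 to -0.92 over the 12 TMM references. miR-34b-3p had 18448 to 28044 CPM and 8354 to 13990 CPM, and miR-30d-5p 15128 to 23805 CPM and 8485 to 10495 CPM, both without overlap and both with a log2 fold change of -1.07. Neither was called under RLE scaling or by DESeq2. Of the 5 most abundant miRNAs in wild type, miR-871-3p alone was called. miR-34c-5p had 73781 ± 16950 CPM (SD, n = 4) in Ago413+/+ and 73399 ± 22498 CPM in Ago413-/-, which gives a difference of -0.01 on the log2 scale (SE 0.26), and let-7g-5p had one of 0.05 (SE 0.22), miR-191-5p one of -0.13 (SE 0.19) and miR-881-3p one of 0.59 (SE 0.27, adjusted p = 0.124 by edgeR).

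**Figure D2:**
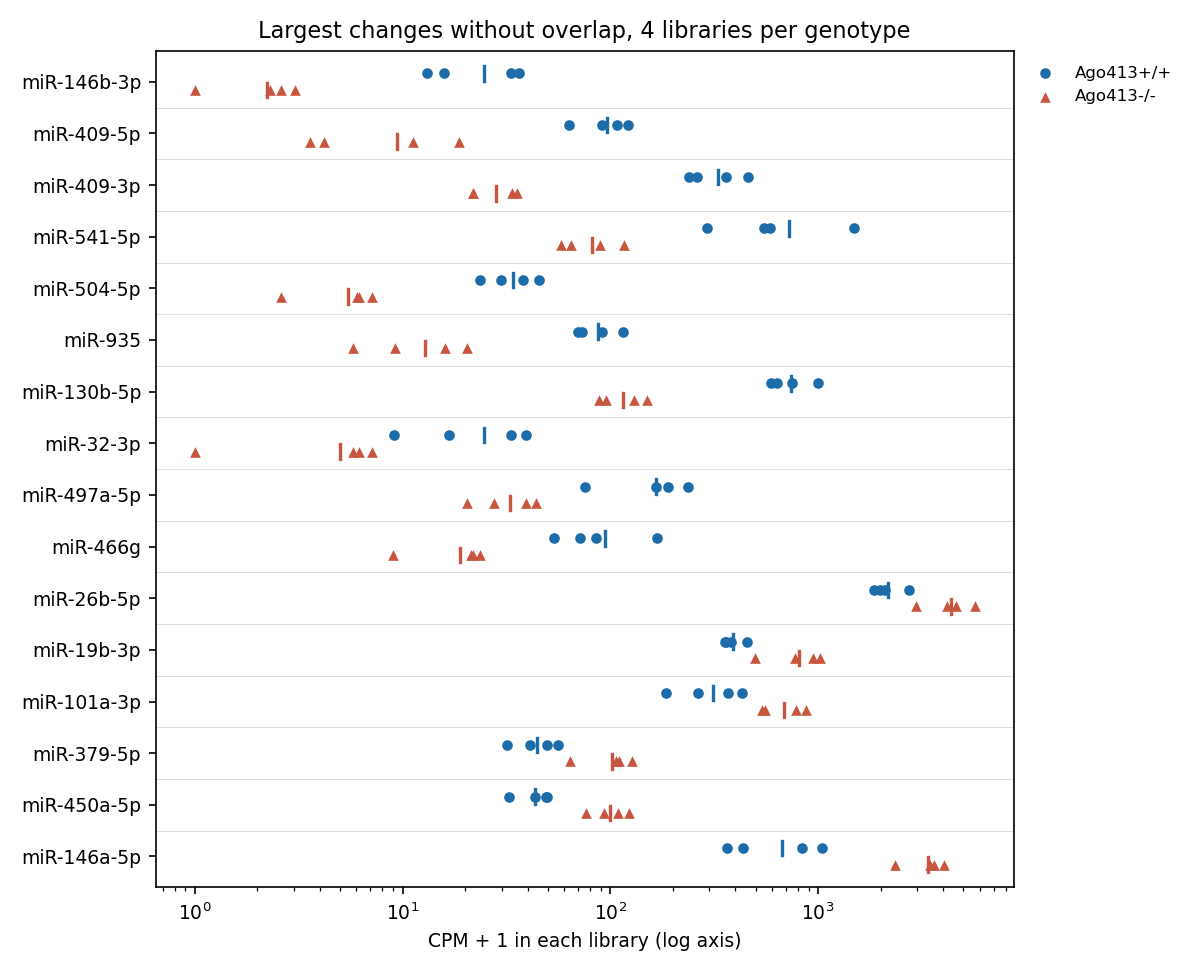
CPM + 1 in each library (log axis) of the 10 largest decreases and the 6 increases whose genotypes did not overlap; circles are the 4 Ago413+/+ libraries, triangles the 4 Ago413-/- libraries and vertical bars the means. miR-409-3p shows the widest gap among those above 100 CPM in wild type, and miR-146a-5p the widest gap upward.

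Increases were fewer and mostly smaller. miR-146a-5p, an inflammation-linked miRNA that targets signalling adaptors of innate immunity, had 364, 836, 1043 and 436 CPM in Ago413+/+ and 3603, 2349, 4030 and 3456 CPM in Ago413-/-. All 4 Ago413-/- libraries lay well above the highest wild-type one, and the log2 fold change was 2.33 (SE 0.37, adjusted p = 0.000368 by edgeR), called under all 16 alternatives. miR-450a-5p, from chromosome X, had 42.2, 31.6, 48.3 and 47.8 CPM and 107, 75.4, 122 and 91.8 CPM (1.24, SE 0.28, adjusted p = 0.00543 by edgeR). miR-379-5p, from the imprinted cluster of chromosome 12, had 30.7 to 54.9 CPM and 63.2 to 126 CPM (1.22, SE 0.29). The other 3 that rose without overlap were miR-101a-3p with a log2 fold change of 1.14 (SE 0.36), miR-19b-3p with 1.06 (SE 0.27) and miR-26b-5p with 1.00 (SE 0.22). With an offset for GC content, miR-146a-5p and miR-379-5p kept their calls, and miR-450a-5p (0.92), miR-101a-3p (0.81), miR-19b-3p (0.95) and miR-26b-5p (0.68) were not called.

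Several increases were of miRNAs known from cells other than spermatids. In bulk fractions, more cells of a type and more of the RNA per cell cannot be told apart. miR-451a, which is made in red blood cells, had 153, 63.3, 419 and 29.9 CPM in Ago413+/+ and 429, 72.9, 557 and 4129 CPM in Ago413-/-. The genotypes overlapped and Ago413-/- replicate 4 was far above the rest. The log2 fold change of 3.02 (SE 1.03, adjusted p = 0.0466 by edgeR) was lost without that library, where the log2 fold change was 1.16, and also without Ago413+/+ replicates 1, 2 or 4. Of the 4 red blood cell miRNAs, 2 had enough counts and 1 was called. The defining pair miR-144-3p and miR-144-5p had at most 4 counts in any of the 8 libraries. The largest increase by fold, miR-122-5p, known from liver and named here after its values were seen, had the same pattern, with 7.91 to 155 CPM in Ago413+/+ and 86.5, 52.8, 320 and 1905 CPM in Ago413-/- replicates 1 to 4.

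miR-202-5p, known from Sertoli and other somatic cells of the gonad, had 3945, 8136, 2119 and 3769 CPM in Ago413+/+ and 14828, 7811, 11698 and 10158 CPM in Ago413-/-. The groups overlapped by 1 library of each (log2 fold change 1.31, SE 0.37, adjusted p = 0.0187 by edgeR), and its other arm, miR-202-3p, had a log2 fold change of 0.12 (SE 0.36). The 2 miR-202 arms summed to 2376 to 8844 CPM and 8153 to 15375 CPM. miR-126a-3p, an endothelial miRNA from an exon of Egfl7, had 668, 2097, 486 and 1845 CPM and 5475, 3418, 2892 and 1787 CPM (1.41, SE 0.42, adjusted p = 0.0243 by edgeR). It was not called without Ago413-/- replicate 1, and the 2 endothelial miRNAs summed to 486 to 2153 CPM and 1846 to 5637 CPM.

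Leukocytes are known to make miR-146a-5p too. Of the 5 leukocyte miRNAs listed, 4 had enough counts and none was called. Their sums with TMM scaling, 211 to 414 CPM in Ago413+/+ and 471 to 579 CPM in Ago413-/-, did not overlap. Their shares of all counts overlapped, at 0.0227% to 0.0425% in Ago413+/+ and 0.0398% to 0.0716% in Ago413-/-. The defining miR-223-3p had at most 7 counts in the Ago413+/+ libraries and 5 to 15 in the Ago413-/- ones. Peritubular and mesenchymal miRNAs (5 of 5 tested, 0 called) summed to 2650 to 10844 CPM and 6181 to 7693 CPM, epithelial ones (4 of 5 tested, 0 called) to 1466 to 2280 and 1567 to 2958 CPM, and spermatogonial ones (3 of 3 tested, 0 called) to 5245 to 8748 and 8460 to 10499 CPM. Nearly all of the spermatogonial sum was miR-21a-5p, with 2494 to 7281 counts per library in Ago413+/+ and 4094 to 8065 in Ago413-/-. miR-221-3p and miR-222-3p had at most 49 counts in any of the 8 libraries, and log2 fold changes of 0.65 and -0.64. What part the cells of the listed types have in the results was not tested. A further fit left out Ago413+/+ replicate 1 and Ago413-/- replicate 4 and kept Ago413-/- replicate 1. In it 47 of 395 miRNAs were called, 12 higher and 35 lower, 44 of them among the 66. miR-146a-5p had a log2 fold change of 2.22 there and miR-202-5p one of 1.39.

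**Figure D3:**
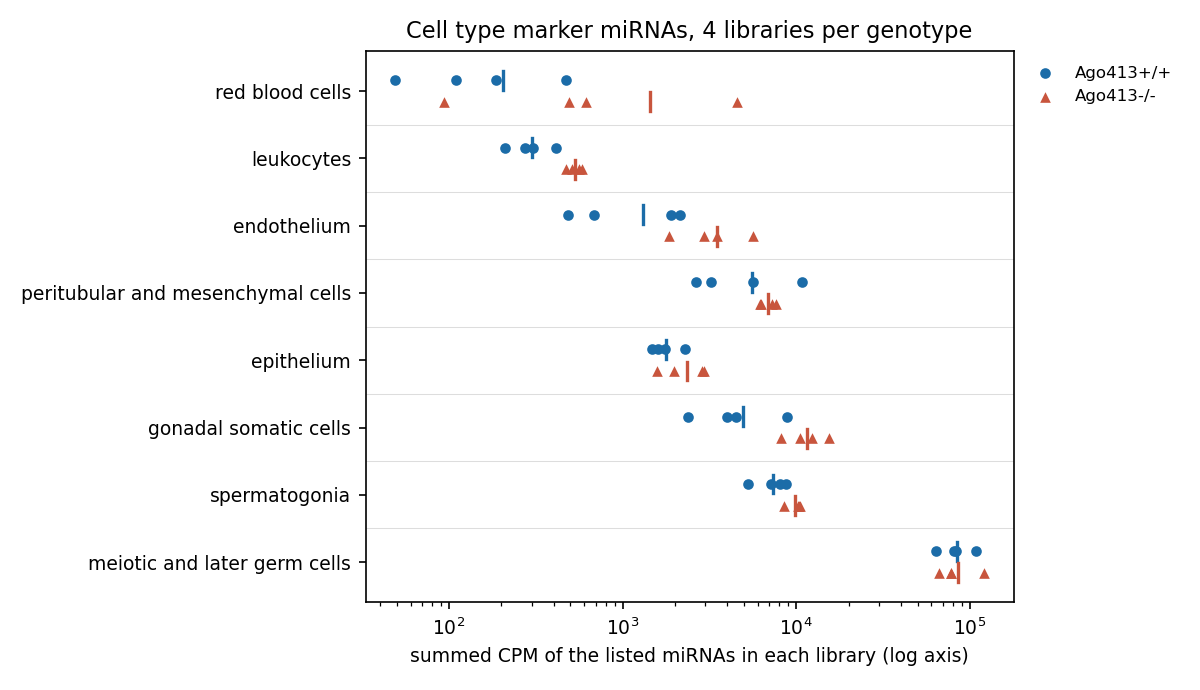
Summed CPM (log axis) of the miRNAs listed for each cell type, in each library; circles are Ago413+/+, triangles Ago413-/- and vertical bars the means. With TMM scaling the leukocyte sums were 211 to 414 CPM in Ago413+/+ and 471 to 579 CPM in Ago413-/-, while the germ cell sums overlapped over most of their range.

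miRNAs made from one stretch of the genome did not always move together. The Dlk1-Dio3 cluster on chromosome 12 is an imprinted region whose miRNAs come from maternally expressed transcripts. Only 11 of its 111 listed mature miRNAs had enough counts, of which 4 were called lower and 1 higher. The 4 lower, both arms of miR-409 (chr12:109743158-109743236), miR-541-5p (chr12:109742409-109742498) and miR-369-5p (chr12:109743418-109743496), all lie within the host transcript Mirg. miR-541-5p had 545, 290, 1481 and 583 CPM in Ago413+/+ and 115, 88.0, 63.5 and 57.1 CPM in Ago413-/-, without overlap (log2 fold change -3.15, SE 0.44, adjusted p = 0.000145 by edgeR). miR-379-5p (chr12:109709060-109709125), from the same cluster, rose, while miR-369-3p had a log2 fold change of -0.68 (SE 0.48) and miR-381-3p one of 0.13. The median of the 11 was -0.75, against -0.08 over all 410.

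The Clcn5 cluster on chromosome X, hairpins within introns of that gene, had 6 of 10 members tested, with 2 lower and 0 higher. These were both arms of miR-532. miR-532-5p had 1066, 894, 1249 and 1130 CPM in Ago413+/+ and 421, 415, 484 and 355 CPM in Ago413-/-, tight and well apart (log2 fold change -1.37, SE 0.23, adjusted p = 0.00065 by edgeR). miR-532-3p had 35.6 to 72.4 CPM and 2.04 to 15.5 CPM (-2.33, SE 0.44). The summed cluster, 1819 to 1983 CPM in Ago413+/+ and 667 to 1000 CPM in Ago413-/-, did not overlap, and its median log2 fold change was -0.94.

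The Sfmbt2 cluster on chromosome 2 is a rodent expansion of many near-identical hairpins within an intron. Its list was drawn by miRNA name (miR-297, miR-466, miR-467 and miR-669), not by position. It therefore holds members from elsewhere, among them the called miR-466i-3p, placed on chromosome 13. The list had 31 of 80 members tested, 8 lower and 0 higher, with a median of -0.75. miR-466g had 52.3, 84.04, 167 and 70.5 CPM in Ago413+/+ and 8.01, 22.6, 20.7 and 20.4 CPM in Ago413-/-, without overlap (-2.36, SE 0.40, adjusted p = 0.00065 by edgeR). The others were between -1.43 (miR-466f-3p) and -1.01 (miR-466c-3p), and included both arms of miR-669a (-1.32 and -1.24). These members share most of their sequence and some have several gene copies, so the counting could have shared reads among them. miR-297b-3p and miR-297c-3p had identical values (-0.75), as had let-7a-1-3p and let-7c-2-3p in the let-7 family (-0.43). The members of such a pair are not separate observations in the numbers tested.

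The miR-30 family, broadly expressed, had 11 of 12 members tested, 4 lower and 0 higher, and a median of -0.51. The calls were miR-30e-3p, miR-30d-5p, miR-30b-3p (-1.24) and miR-30c-2-3p (-1.02), the last called under only 2 of 12 TMM references. Its sum, 54345 to 72845 CPM in Ago413+/+ and 38744 to 43944 CPM in Ago413-/-, did not overlap. miR-30b-5p, on the same hairpin as miR-30b-3p, had a log2 fold change of 0.62 (SE 0.26, adjusted p = 0.0981 by edgeR).

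The X-linked testis hairpins, known for their abundance in male germ cells, had 35 of 40 members tested, 4 lower (miR-470-3p, miR-883b-5p, miR-871-3p and miR-743b-5p) and 1 higher (miR-201-5p). Their median was -0.26, and -0.06 under the TMM reference with the most higher calls. Their share of counts was 29.9% to 33.0% in Ago413+/+ and 27.04% to 35.3% in Ago413-/-. Over the whole X chromosome, 10 of 63 members tested were lower and 2 higher, and over the autosomes 41 of 338 lower and 12 higher.

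The miR-17-92 cluster, whose transcript is known from proliferating cells, had 9 of 14 members tested, 2 higher and 0 lower, with a median of 0.50. The 2 were miR-19a-3p (1.01, SE 0.32) and miR-19b-3p, and their seed, GUGCAAA, is the same. In the related miR-106b-25 cluster, all 6 members were tested, 2 lower and 0 higher, and both calls were minor arms, miR-93-3p (-1.43, SE 0.38) and miR-25-5p (-1.38, SE 0.30). Its median was -0.10 and changed sign with the scaling.

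The remaining lists held few or no calls in most cases. The family of miR-15, miR-16, miR-195 and miR-497 (13 tested) had 3 lower and 1 higher, with a median of 0.04, and the miR-146 family (3 tested) 1 lower and 1 higher. The let-7 family (14 tested) had 1 lower, let-7b-3p, and the miR-34 and miR-449 family (8 tested) 1 lower, miR-34b-3p, with medians of 0.12 and -0.04, the second positive under RLE scaling (0.07). The miR-148 and miR-152 family (5 tested) had 1 lower, miR-148a-5p, and the miR-181 family (5 tested) 1 lower, miR-181c-5p. The miR-26 family and the clusters of miR-23, miR-27 and miR-24 had 1 higher each, miR-26b-5p and miR-27a-3p. The families of miR-10, miR-99, miR-100 and miR-125 (12 tested), the miR-200 and miR-141 family (5), the miR-191 and miR-425 cluster (4), the miR-183 cluster (3), the miR-29 family (3), the miR-103 and miR-107 family (2) and the group of miR-320, miR-484 and mirtrons (8), made without Drosha or by other noncanonical routes, had none, with medians from -0.62 in the last to 0.48 in the miR-29 family.

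**Figure D4:**
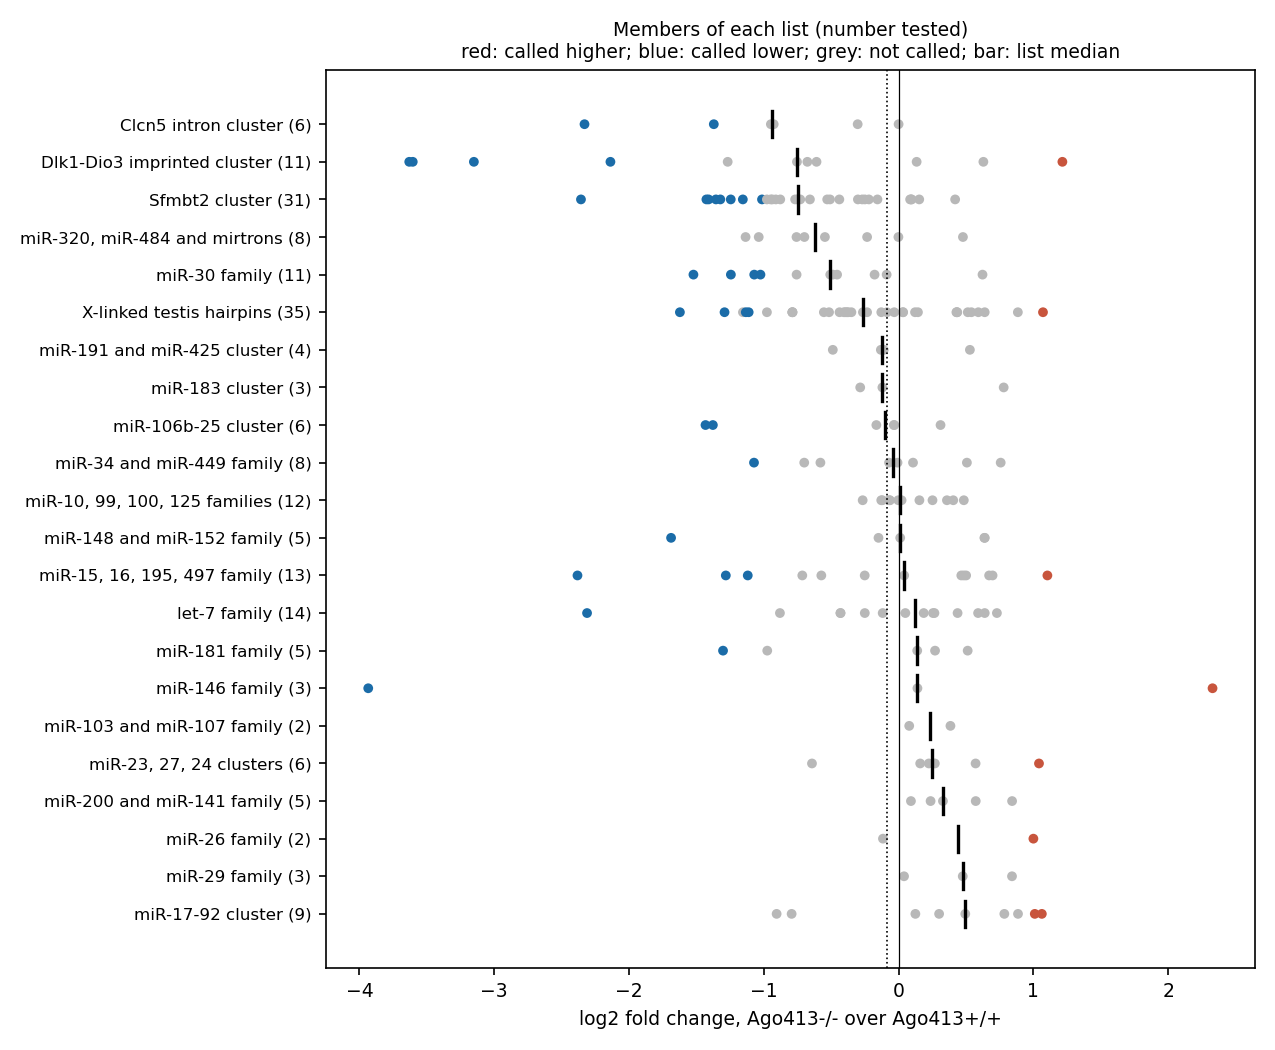
Log2 fold change of every tested member of each list; red points were called higher, blue lower and grey not called, black bars are list medians and the dotted line is the median of all 410 miRNAs (-0.08). The Clcn5, Dlk1-Dio3 and Sfmbt2 lists have the lowest medians (-0.94, -0.75 and -0.75), and the miR-146 family spans the widest range.

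miRNAs that share a seed did not always move the same way, so a count of single miRNAs and a count by seed differ. Only miRNAs with a RefSeq sequence could be summed by seed. Those without one, 69 of the 410, stayed single and are missing from the sum of their seed. Of the resulting 341 features (seeds and single miRNAs), 54 were called (15.8%), 12 higher and 42 lower, and 10 miRNAs called singly fell into sums that were not. The seed AGCAGCA had 6 tested members. miR-497a-5p had 165, 74.2, 235 and 189 CPM in Ago413+/+ and 38.4, 42.8, 19.4 and 26.5 CPM in Ago413-/-, without overlap (log2 fold change -2.38, SE 0.38, adjusted p = 0.000368 by edgeR). miR-195a-5p, from the neighbouring hairpin on chromosome 11, had 420, 663, 673 and 857 CPM and 275, 279, 234 and 288 CPM, also without overlap (-1.28, SE 0.26). miR-15a-5p, from chromosome 14, went the other way, with 54.3, 57.3, 51.5 and 107 CPM and 154, 176, 77.7 and 188 CPM, overlapping through 1 library of each (1.10, SE 0.34, adjusted p = 0.0293 by edgeR). The most abundant member, miR-16-5p, had a log2 fold change of 0.67 (adjusted p = 0.0624 by edgeR), and the sum over the 6, 7423 CPM in Ago413+/+ and 8631 CPM in Ago413-/- on average, one of 0.22 (SE 0.20, adjusted p = 0.467 by edgeR).

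The seed GAGAACU belongs to miR-146a-5p and miR-146b-5p, which are made from different chromosomes. miR-146a-5p rose as given above, and miR-146b-5p had a log2 fold change of 0.14 (SE 0.20). Their sum rose from 1161 to 1911 CPM in Ago413+/+ to 3312 to 5314 CPM in Ago413-/- (log2 fold change 1.596, SE 0.25, adjusted p = 0.000389 by edgeR). For UCAAGUA the called member, miR-26b-5p, is the less abundant one, and the sum with miR-26a-5p had a log2 fold change of 0.11 (SE 0.17). The sums of miR-19a-3p and miR-19b-3p (1.11, SE 0.27) and of miR-30a-3p and miR-30e-3p (-1.07, SE 0.22) were called, and the sum of miR-34b-3p and miR-34c-3p was not (-0.90, SE 0.21).

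The ratio of the 2 arms of a hairpin within a library does not depend on the scaling between libraries. It was tested with limma in the 110 hairpins whose arms together had 50 or more counts in every one of the 8 libraries, as log2((minor arm counts + 0.5) / (major arm counts + 0.5)), where the minor arm is the one with fewer counts in Ago413+/- round spermatids. The ratio was called in 13 of the 110 hairpins at an adjusted p under 0.05 (11.8%). The minor arm's share was lower in Ago413-/- in 10 (9.09%) and higher in 3. In 12 of the 13 the genotypes did not overlap, as in 24 of all 110 (21.8%). Over the 110 hairpins, 63 had a lower and 47 a higher minor arm ratio in Ago413-/-, with a median difference of -0.29. The median over hairpins was -5.23 to -4.95 in the 4 Ago413+/+ libraries and -5.56 to -5.17 in the 4 Ago413-/- libraries, so that the genotypes overlapped there.

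The passenger strand of miR-146b changed most. Its 3p arm made up 1.56%, 1.92%, 3.49% and 3.86% of the hairpin's counts in Ago413+/+ and 0.163%, 0%, 0.142% and 0.245% in Ago413-/-, where the single libraries held no more than 1 count of it. The difference of the log2 ratio was -3.58 (SE 0.39, adjusted p = 4.87e-05 by limma), while miR-146b-5p itself did not pass the test. In let-7b the 3p share was 1.17%, 0.833%, 0.452% and 0.885% in Ago413+/+ and 0.204%, 0%, 0.148% and 0.166% in Ago413-/- (-2.61, SE 0.51, adjusted p = 0.00658 by limma). In miR-148a the 5p share was 0.0964% to 0.218% and 0.0210% to 0.0679% (-2.13, SE 0.43), and in miR-30b the 3p share was 3.72% to 6.64% and 0.785% to 2.33% (-1.88, SE 0.39). None of these shares overlapped between the genotypes.

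miR-93, miR-25 and miR-470 had the same direction, with differences of -1.61 (SE 0.35), -1.23 (SE 0.28) and -1.84 (SE 0.45). The ratio went the other way in miR-130b, because its 5p arm fell and its 3p arm did not pass the test. The 3p share was 4.21%, 2.58%, 0.962% and 3.64% in Ago413+/+ and 9.23%, 7.81%, 13.0% and 11.3% in Ago413-/- (2.15, SE 0.44, adjusted p = 0.00658 by limma). In miR-465a, whose arms are nearly equal in level, the 5p share rose from 37.3% to 49.3% in Ago413+/+ to 63.0% to 66.3% in Ago413-/- (1.31, SE 0.30), so that the more abundant arm changed from 3p to 5p; its 3p reads may be shared with miR-465b and miR-465c, whose 3p log2 fold changes were both -0.79. Calls of miR-672, miR-143 and miR-743b stood under no more than 4 of their alternatives. The call of miR-375 rests on a 5p arm with no count in 7 of the 8 libraries and is that of its falling 3p arm. The remaining 9 were called under every alternative where they could be tested except miR-470, which was lost without Ago413-/- replicate 2.

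In the count test of the 72 hairpins with both arms among the 410, 12 minor arms were called lower and 0 higher, and 8 major arms lower and 3 higher. Of all 410 miRNAs, 12.4% were called lower and 3.66% higher. Whether minor and major arms differ in these counts was not tested. The medians of the log2 fold changes were -0.25 for the minor arms and -0.03 for the major arms. Both arms moved in the same direction in 47 of the 72, and both were called lower in 3.

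**Figure D5:**
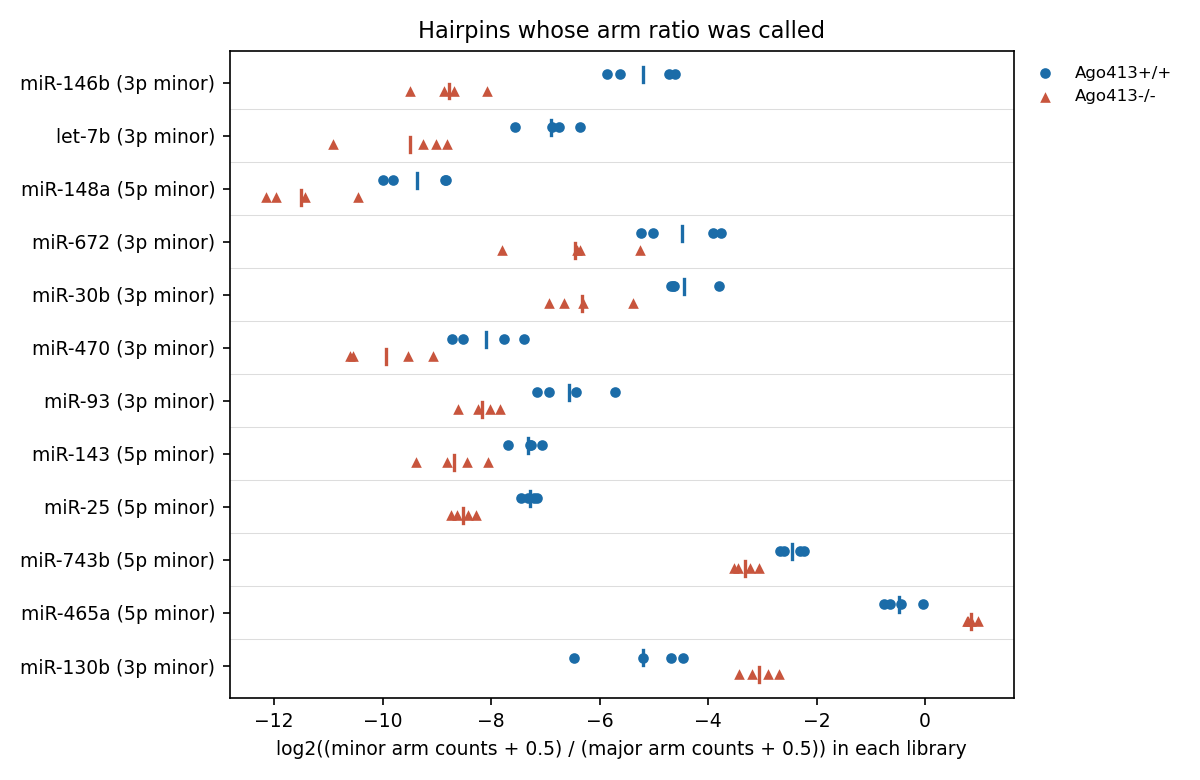
Log2 ratio of minor to major arm counts, with 0.5 added to each, in every library for 12 of the 13 hairpins called (miR-375, whose 5p arm had no count in 7 of the 8 libraries, is left out); circles are Ago413+/+, triangles Ago413-/- and vertical bars the means. In 10 hairpins the Ago413-/- libraries lie to the left, and in miR-465a and miR-130b to the right.

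The called miRNAs differed in base composition. Of the 14 higher calls with a RefSeq sequence, 12 began with U, of the 37 lower calls 6 did, and of all 341 miRNAs 163 (47.8%). The median GC content was 37.7% in the higher calls, 47.8% in the lower calls and 45.5% in all. Among miRNAs at or under the median GC content, the median log2 fold change was 0.17 for the 110 that begin with U and -0.10 for the 64 that do not, and above it -0.15 for 53 and -0.13 for 114. The first base also went with the arm. Among minor arms the median was 0.03 for 21 with U and -0.52 for 40 without. Among major arms it was 0.07 for 57 with U and -0.02 for 36 without. With an offset that removes each library's trend on GC content, the medians over all 341 were 0.13 with U and 0.08 without. In that fit the medians were 0.13 and -0.12 at or under the median GC content, and 0.12 and 0.15 above it. In that fit 39 miRNAs were called, 8 higher and 31 lower, and in the same 341 miRNAs without the offset 49, 14 higher and 35 lower. Since the GC trend differs between the Ago413+/+ and Ago413-/- libraries, what the GC content of the reads has to do with these calls was not tested further. With the offset miR-409-3p had a log2 fold change of -3.40, miR-541-5p one of -3.16, miR-130b-5p one of -2.62 and miR-146a-5p one of 2.28, all still called.

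Ago413+/- round spermatids, with 1 intact copy of each gene, were tested against the same wild-type libraries, so their values are set beside those above and not correlated with them. By edgeR 0 of the 410 miRNAs were called (0.0%), with 64 at an unadjusted p under 0.05, and by DESeq2 8. miR-409-3p had 179 ± 80.6 CPM (SD, n = 4) in Ago413+/-, miR-541-5p 386 ± 91.5 CPM, miR-130b-5p 521 ± 162 CPM and miR-146a-5p 1825 ± 816 CPM. The miR-146b-3p level was 26.1 ± 7.02 CPM, within the wild-type range, and its share of the hairpin was 2.92%.

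In spermatocytes of the same genotypes, the cells before the meiotic divisions, 17 of the same 410 miRNAs were called by edgeR between Ago413-/- and Ago413+/+ (4.15%), and 61 by DESeq2. Of the 66 miRNAs called in round spermatids, 12 were called there, all 12 lower, and 56 had a log2 fold change of the same sign, as had 261 of all 410. The filter was set on round spermatids. Ago413-/- spermatocyte libraries held only 182904 to 369491 counts, so 3 counts made 8.12 to 16.4 CPM before scaling. Large decreases in spermatocytes may therefore rest on few counts. miR-409-5p had a log2 fold change of -4.89 in spermatocytes, miR-935 one of -3.74, miR-497a-5p one of -3.01 and miR-532-3p one of -2.63. miR-146a-5p had one of -1.26 (SE 0.88) in spermatocytes, miR-375-3p one of -0.02 (SE 0.39) and miR-871-3p one of 0.34 (SE 0.40). Whether these differ from the round spermatid values was not tested here, and the spermatocyte libraries came from other fractions.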

How the data were processed

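Small RNA libraries were made from 100 ng of total RNA with a NEBNext Small RNA kit. The authors trimmed reads with Trim Galore (version not given in the sources used here) and counted them with miRDeep2 against miRBase, and the deposited table holds raw counts per mature miRNA, with no normalization. How reads that fit several near-identical miRNAs were shared is not stated.

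From these counts, edgeR 4.0.16 (R 4.3.3) was fitted with TMM scaling over the 12 round spermatid libraries, so that the 3 genotypes share the estimate of spread. DESeq2 1.42.0 was an alternative. Arm ratios were tested with limma 3.58.1. Library totals ran from 343564 to 1072637 counts. Sequences and positions came from RefSeq (GRCm38.p6) and host genes from GENCODE. All tests were two-sided and the scripts were tested on simulated data. The members and gene lists were chosen with earlier results of these data known. The miRNAs named were the 5 most abundant in wild type, the 10 largest increases and decreases without overlap, the 10 most abundant called, called list members with their other arms, called arm ratios and cell type markers; miR-122-5p and any other outside this rule were chosen after their values were seen. Alternatives were another tool, scaling or filter, a replicate block and leaving out libraries; those with a GC offset, 2 libraries left out, the filter over 12 libraries and the TMM references were added after seeing the data. Same-numbered Ago413+/+ and Ago413-/- libraries did not deviate together.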

Additional observations from a re-analysis of the deposited data

Results flagged for a closer look

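In 15 of 190 groups of 4 libraries, over 95 named miRNAs, the highest or lowest library stood apart by Dixon's criterion, where chance gives about 1 in 20 groups (9.5). Ago413-/- replicate 4 was high for miR-451a (4129 CPM) and miR-486a-5p (416 CPM), both red blood cell miRNAs, and stood apart for miR-155-5p (57.1 CPM) and miR-21a-5p (8352 CPM). Ago413+/+ replicate 1 was high for miR-143-3p (8230 CPM) and miR-145a-5p (217 CPM), known from smooth muscle-like cells, and low for miR-148a-3p (29805 CPM). Ago413-/- replicate 1 stood apart for miR-466g (8.01 CPM), miR-669a-3p (40.0 CPM), miR-25-5p (54.4 CPM) and miR-126a-5p (162 CPM). The others were miR-15a-5p (107 CPM) in Ago413+/+ replicate 4, miR-199a-3p (3368 CPM) in Ago413+/+ replicate 2, miR-93-3p (17.6 CPM) in Ago413-/- replicate 2 and miR-883b-5p (54.4 CPM) in Ago413-/- replicate 3.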

How the results depend on the processing

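Of the 66 calls, 17 were made under all 16 alternatives not added later (4 higher, 13 lower) and 28 whenever 1 library was left out. The call count was 43 of 273 miRNAs with at least 10 counts in each of the 8 libraries (24 lower) and 39 of 341 with the GC offset (8 higher, 31 lower), both of which test fewer miRNAs. The higher calls, 15, became 23 by DESeq2, 24 by adjusted p alone, 27 with another TMM reference and 32 with the filter over 12 libraries. Leaving out 1 library gave 52 to 66 calls, 9 to 28 higher and 28 to 44 lower. The higher calls were 9 without Ago413-/- replicate 4, 25 without Ago413+/+ replicate 3, 28 without Ago413-/- replicate 2 and 26 without Ago413-/- replicate 3, and the lower calls 28 without Ago413+/+ replicate 3 and 33 without Ago413-/- replicate 1. Arm ratio calls ran from 8 (without Ago413-/- replicate 2) to 13. In Ago413+/- the calls were 8 by DESeq2, 8 without a filter and 0 to 1 with a library left out, and in spermatocytes 61 by DESeq2, 26 with library totals, 47 without a filter and 11 to 18 with a library left out, 11 without Ago413+/+ replicate 3. The cause of these shifts was not tested.

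A replicate block gave 55 calls, 9 higher and 46 lower. The numbers do not pair the libraries, since same-numbered Ago413+/+ and Ago413-/- libraries had correlations of deviations of 0.189, -0.227, -0.047 and 0.039, and not every library correlated best with its own number. No named miRNA that was called changed sign, nor did a called arm ratio. Of the values that were not called, 11 named miRNAs and 12 medians over lists or chromosomes had the other sign under 1 or more alternatives, the largest of them 0.33 in reported size. Of the other values, 1330 single miRNA values stayed on their side of the threshold, 118 lost it and 30 gained it. For arm ratios 121 stayed and 31 lost it, and 449 list medians moved by less than their spread and 63 by more.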
